A study of Mus musculus with 9 samples.

Results

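The genes described here are the nuclear-encoded parts of the mitochondrial oxidative phosphorylation machinery in mouse embryonic fibroblasts (MEFs), set side by side in WT cells and in cells labelled *Atm-/-* or *Sirt6-/-*. They were chosen by name: 90 of the 24341 genes listed, made up of the symbols that begin with Nduf, Uqcr, Atp5 or Cox with a digit from 4 to 8, and of *Cyc1* and *Cycs*. Of these, 36 encode complex I subunits, 9 complex III subunits with cytochrome c1 (*Cyc1*), 1 encodes somatic cytochrome c (*Cycs*), 18 complex IV subunits with *Ndufa4*, and 15 ATP synthase (complex V) subunits. The other 11 are the assembly factors *Ndufaf1* to *Ndufaf7*, the supercomplex factor *Cox7a2l*, the *Ndufa4* relative *Ndufa4l2*, and *Atp5s* and *Atp5sl*, which share the name but are not structural subunits. Complex II was outside the name rule, and the mitochondrially encoded subunits (0 of 13 searched were listed) were not analysed here.

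In oxidative phosphorylation, complex I takes electrons from NADH and hands them to ubiquinone, complex III passes them on to cytochrome c, and complex IV delivers them to oxygen. Complexes I, III and IV pump protons out of the matrix, and ATP synthase lets the protons flow back through a rotating ring of c subunits to drive the F1 head, where ATP is made. Each complex is a mosaic: a few subunits come from mitochondrial DNA, and the rest, including those described here, are made from nuclear genes and imported. MEFs use both this route and glycolysis for ATP, and the study behind these samples asked how ATM and SIRT6 affect the balance of glucose metabolism.

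Poly(A)-selected RNA was sequenced from 9 MEF samples of the C57BL/6 strain, 3 each for WT, *Atm-/-* and *Sirt6-/-*, all grown in DMEM with fetal bovine serum and given no further treatment in the labels. Each sample had a deposited read count and an RPKM (reads per kilobase of gene length, scaled for library size) for every gene. According to the labels, MEFs came from WT, *Sirt6-/-*, *p53-/-* or *Atm-/-*;*p53-/-* mice, but no sample is assigned a p53 genotype. The study's methods describe immortalised *Atm-/-*;*p53-/-* and *Sirt6-/-* lines from different laboratories. Whether the replicates were separate cultures or embryos is not stated, so p-values measure the spread between these samples, which may be technical.

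*Sirt6* was almost absent where it should be: 4, 5 and 7 reads in the *Sirt6-/-* samples against 487, 402 and 472 in WT. *Atm* went the other way. It stood at 109, 102 and 102 CPM (counts scaled by library size with edgeR's TMM factors) in the samples labelled *Atm-/-* and at 48.2, 51.7 and 51.7 in WT, so a count over the whole gene did not set those samples apart as knockouts, and the sources used here do not say which part of *Atm* the allele lacks. *Trp53*, the gene for p53, was at 23.3, 27.0 and 27.4 CPM in the samples labelled *Atm-/-*, 223, 227 and 208 in WT and 279, 282 and 276 in *Sirt6-/-*. A difference of the samples labelled *Atm-/-* from WT therefore cannot be told apart from one that goes with low *Trp53* or with the origin of the line. The study's methods also describe a *Sirt6-/-* line from another laboratory, but do not say that these samples came from it. The difference of the *Sirt6-/-* samples from WT therefore cannot be told apart from the origin of the line either.

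Depth was even, between 32187040 and 33837949 counted reads per sample. WT replicate 2 differed from the other WT samples more than any other replicate pair did. Fibroblast markers, 11 genes led by collagens and fibronectin, summed to 28150.0 to 31230.0 CPM in WT, 9114 to 9361 in the samples labelled *Atm-/-* and 20220.0 to 20570.0 in *Sirt6-/-*. Of the 10 that were tested, 9 were lower and 1 (*Thy1*) higher than WT in the samples labelled *Atm-/-*, and 6 were lower and 4 higher in *Sirt6-/-*. *Thy1* had a mean of 24.4 CPM in WT, 87.3 in the samples labelled *Atm-/-* and 0.470 in *Sirt6-/-*, *Col3a1* fell from 2227 in WT to 109 in the samples labelled *Atm-/-*, and *Lum* was near 0 in every group. The 4 neural markers summed to 3.93 to 4.54, 89.6 to 98.95 and 77.9 to 85.9 CPM in the same order, nearly all of it *Map2* and *Tubb3*, with *Sox10* and *Snap25* near 0. The 3 germ cell markers summed to 2.05 to 3.07, 20.5 to 24.6 and 0.124 to 0.399 CPM, and the 5 epithelial markers to 20.6 to 25.2, 43.8 to 48.4 and 15.3 to 19.6. The other marker lists were lower but also moved with the groups. The 4 endothelial markers summed to 3.11 to 5.15 CPM in WT, 9.81 to 12.5 in the samples labelled *Atm-/-* and 0.649 to 0.990 in *Sirt6-/-*, and the 4 blood markers to 10.8 to 11.8, 3.46 to 3.68 and 3.59 to 4.26. The 8 striated muscle markers summed to 12.7 to 15.2, 1.28 to 2.04 and 1.5 to 2.04 CPM, and the 4 brown fat markers to 0 to 0.159, 0.314 to 0.354 and 2.35 to 3.07, with *Prdm16* making up most of it in both knockouts. *Myod1*, *Myog*, *Ckm*, *Myh6*, *Myh3*, *Ucp1*, *Cidea* and *Dazl* had at most 3 reads in any sample. The part of these differences in the results below was not tested. In bulk RNA, fewer cells that express a gene and less of its RNA per cell cannot be told apart.

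Of the 90 members, 82 had enough reads to be tested in every comparison. The 8 that did not, *Cox4i2*, *Cox6a2*, *Cox6b2*, *Cox7a1*, *Cox7b2*, *Cox8b*, *Cox8c* and *Ndufa4l2*, are mostly isoforms known from heart, skeletal muscle, lung or testis, and reached at most 12 reads in any sample. Complex IV was therefore described by its 11 ubiquitous subunits. On a per-length scale the tested members ran in WT from a mean of 2.87 RPKM for *Atp5s* to 806 for *Atp5b*, the catalytic beta subunit of ATP synthase. The median member of complex IV in WT was at 220.2 RPKM, of ATP synthase at 187, of complex III at 117 and of complex I at 61.7, while the assembly factors and other matched proteins had a median of 7.31.

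More members were lower than higher in *Sirt6-/-* cells. Of the 82 tested members, 48 were lower and 14 higher than in WT at an adjusted p under 0.05 (edgeR quasi-likelihood test, Benjamini-Hochberg adjustment over all genes, the source of every adjusted p below), against 37.4% of all tested genes lower and 39.2% higher (76.6% called in all). As shares of the tested members that is 58.5% lower and 17.1% higher. Values after ± beside a log2 fold change are standard errors. The median log2 fold change of the members was -0.24, and that of all tested genes 0.02. With library totals in place of the TMM scaling 41 were lower and 19 higher, the members' median was -0.15 and that of all genes 0.11. Most falls were modest: 3 members fell by more than 2-fold (*Atp5e*, *Ndufaf3* and *Ndufb10*), and none rose by that much.

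The samples labelled *Atm-/-* showed no such shift as a group. Here 29 members were lower and 23 higher than in WT, 35.4% and 28.05% of those tested, against 33.6% of all genes lower and 34.7% higher (68.4% called in all). No member changed by more than 2-fold. The median was -0.02 for the members and 0.02 for all genes. This balance rests on the TMM scaling between libraries. With library totals alone, 39 members were higher and 22 lower, and the median of all genes moved to 0.18, so that the members, at 0.14, again lay close to it.

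Set against each other directly, the samples labelled *Atm-/-* had 42 members above and 17 below *Sirt6-/-*, where 38.0% of all genes were higher and 37.8% lower (75.8% called in all). With library totals alone the split was 46 above and 10 below. The median difference was 0.20 for the members and 0.0021 for all genes. The comparisons with WT share the same WT samples and the direct one shares both knockouts, so the 3 sets of values are not independent. These shares of all genes are also the background for the counts by complex and list below.

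**Figure D1:**
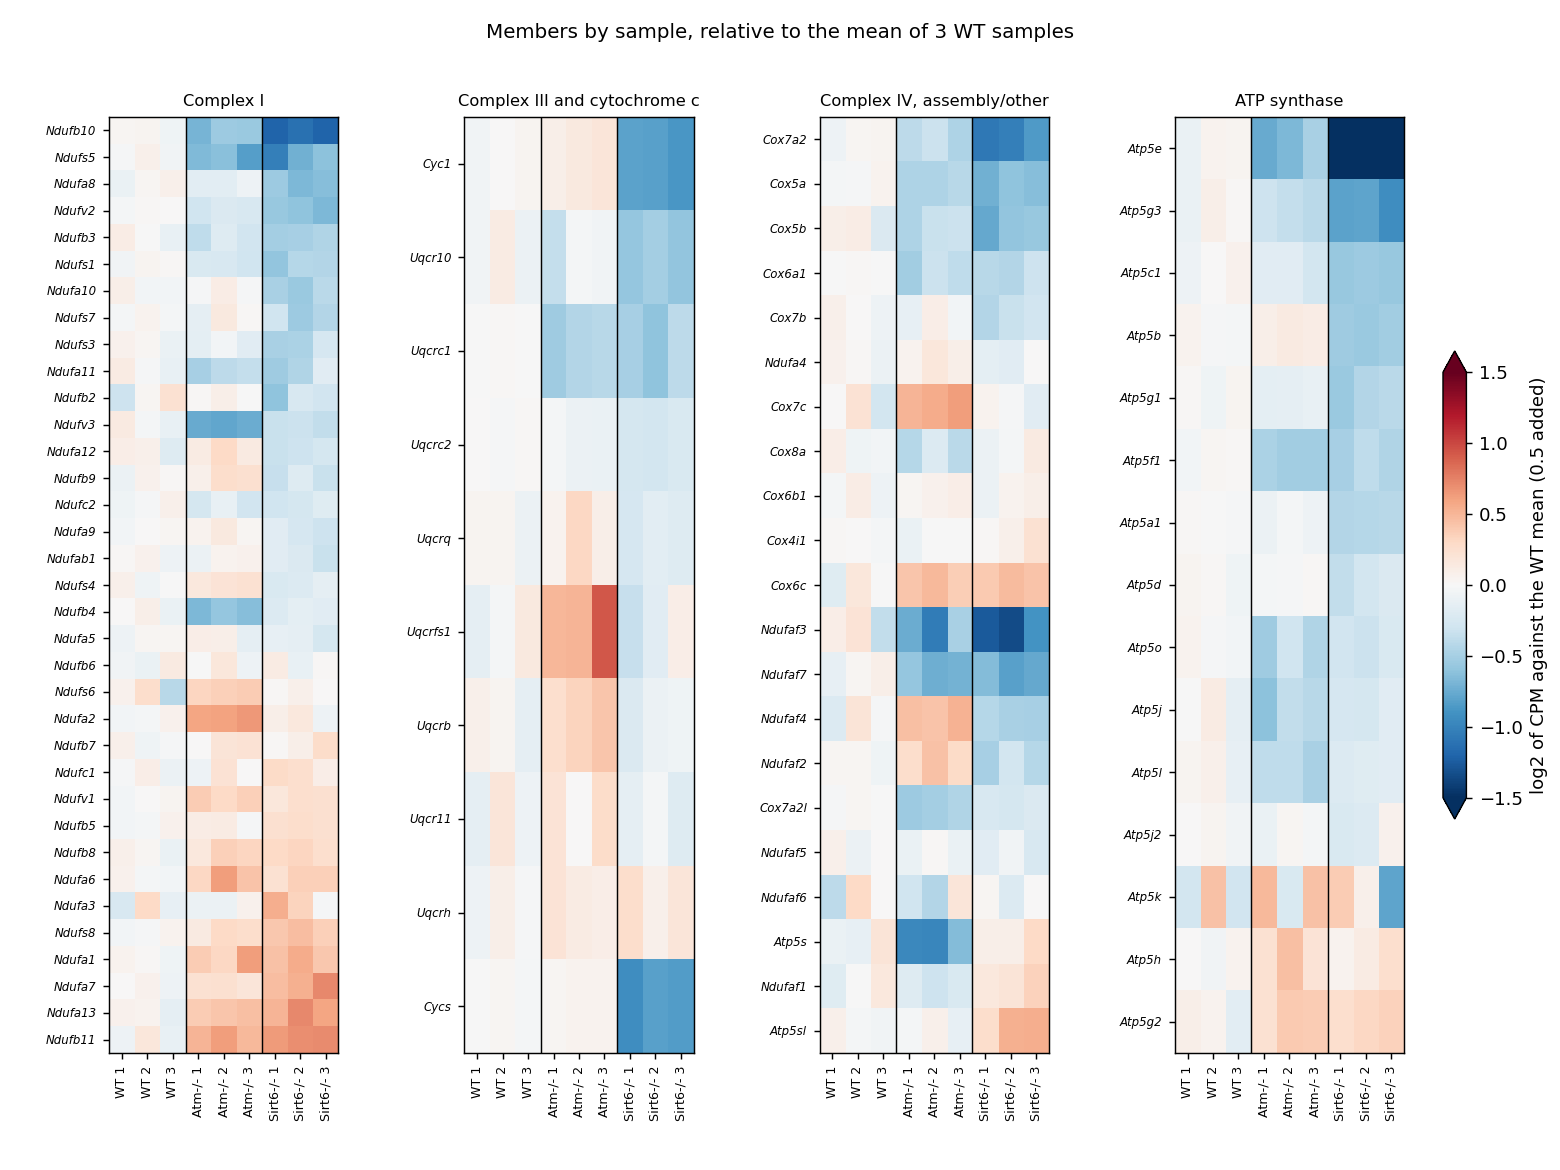
Heat map of 81 of the 82 tested members (rows, in 4 panels by complex) in the 9 samples (columns), as log2 of CPM with 0.5 added against the mean of the 3 WT samples, with blue below and red above WT; colours end at 1.5 in either direction. The *Sirt6-/-* columns are mostly blue, with *Cyc1*, *Cycs*, *Ndufb10*, *Cox7a2* and *Atp5e* the clearest, while the *Atm-/-* columns mix blue and red.

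**Figure D2:**
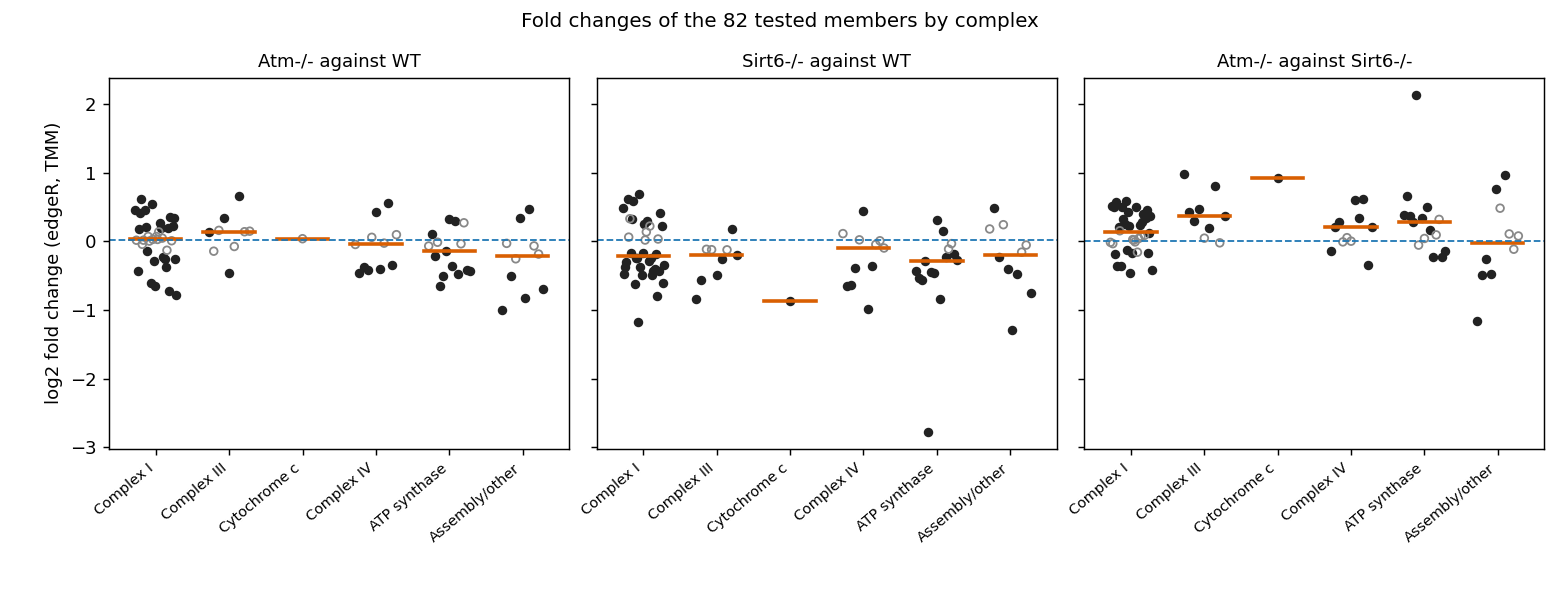
Log2 fold change of each tested member (1 point a gene) by complex in the 3 comparisons. Filled points had an adjusted p under 0.05 and open points did not, orange bars mark the median of each class, and the dashed line is the median of all tested genes; in *Sirt6-/-* against WT every class median lies below that line, down to -0.86 for cytochrome c.

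Summed over each complex, the mean of the *Sirt6-/-* samples was the lowest of the 3 groups for complexes I, III, IV and V. ATP synthase members summed to 4608 ± 57.9 CPM in WT (mean ± SD, n = 3), 4429.5 ± 83.6 in the samples labelled *Atm-/-* and 3443 ± 48.2 in *Sirt6-/-*, a ratio to WT of 0.961 and 0.747. For complex III with *Cyc1* the sums were 940.4 ± 16.9, 952 ± 38.2 and 722 ± 20.2 CPM, with ratios of 1.01 and 0.768. Complex I summed to 2087 ± 28.2, 2053 ± 65.5 and 1839 ± 28.6, with ratios of 0.984 and 0.881. Complex IV summed to 1696 ± 52.2, 1561 ± 68.1 and 1517 ± 79.8, with ratios of 0.921 and 0.895. In each complex the 3 *Sirt6-/-* samples lay below the 3 WT samples on this scale. As a share of all counted reads this held for complexes I, III and V, while in complex IV they overlapped, at 0.146%, 0.151% and 0.161% against 0.163%, 0.163% and 0.155% in WT. Against the samples labelled *Atm-/-* they lay below in complexes I, III and V, while in complex IV the ranges overlapped (1492 to 1629 against 1446 to 1604 CPM). As a share of all counted reads the samples labelled *Atm-/-* lay above the 3 WT samples in complexes I, III and V. In complex IV they overlapped WT on that scale, at 0.157%, 0.172% and 0.164%. *Atp5b* and *Atp5a1* carry a large part of these reads, and without them the ratio of the whole set was 0.832 in *Sirt6-/-* in place of 0.801. With library totals in place of TMM the ratios of the whole set were 0.853 for *Sirt6-/-* and 1.07 for the samples labelled *Atm-/-*, the latter turned from 0.963.

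**Figure D3:**
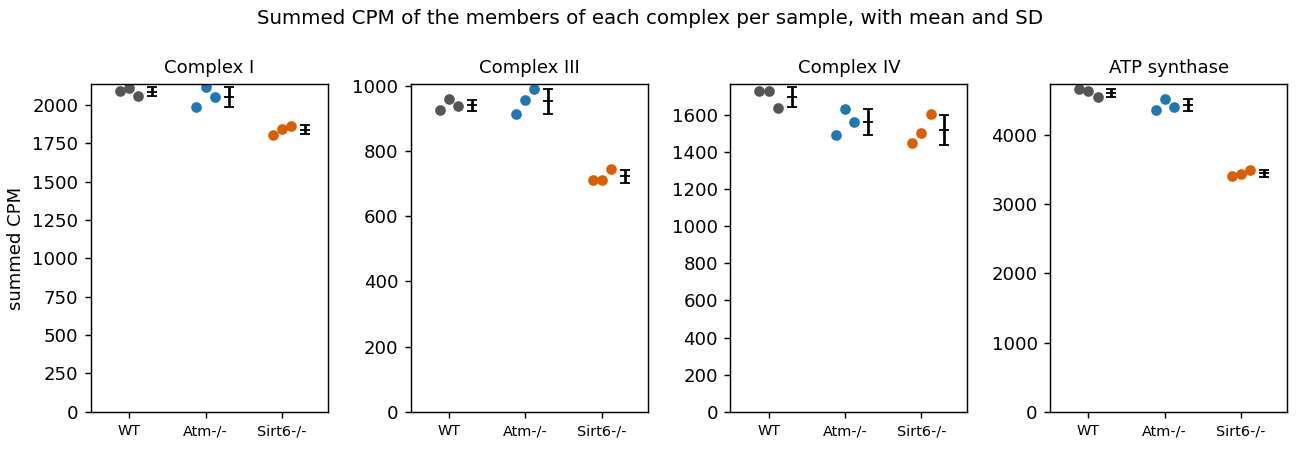
Summed CPM of the members of complexes I, III, IV and ATP synthase in each sample (points), with the mean and SD of 3 samples beside them. *Sirt6-/-* lies below WT in every panel, most in ATP synthase at 3443 ± 48.2 against 4608 ± 57.9 CPM, while the samples labelled *Atm-/-* lie below all WT samples in complex IV, where they overlap *Sirt6-/-*. As a share of all counted reads both knockouts overlap WT in complex IV.

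Complex I, the entry point for NADH, had 21 of 36 subunits lower and 9 higher in *Sirt6-/-*, with log2 fold changes from -1.18 to 0.69 and a median of -0.21. In the samples labelled *Atm-/-* 11 were lower and 13 higher, from -0.78 to 0.62 with a median of 0.03. The core subunits described here, which carry the flavin and iron-sulphur clusters or help to bind ubiquinone, were split in both. *Ndufs1*, *Ndufs3*, *Ndufs7* and *Ndufv2* fell in *Sirt6-/-* (log2 fold change -0.61 to -0.40), while *Ndufv1*, the flavin-binding subunit, and *Ndufs8*, which carries 2 iron-sulphur clusters, rose by 0.23 and 0.42. In the samples labelled *Atm-/-*, *Ndufs1* and *Ndufv2* fell (-0.26 and -0.26), *Ndufv1* and *Ndufs8* rose by 0.34 and 0.23, and *Ndufs3* and *Ndufs7* did not pass the test (-0.13 and 0.01).

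The complex I subunits that follow are accessory, needed for its assembly and stability. *Ndufb10*, part of the distal membrane arm, had the deepest fall. It stood at 93.7, 94.9 and 87.8 CPM in WT, 56.5, 63.0 and 62.5 in the samples labelled *Atm-/-* and 39.9, 42.1 and 39.9 in *Sirt6-/-*. The 3 groups did not overlap, with WT highest and *Sirt6-/-* lowest, and the log2 fold changes against WT were -0.61 ± 0.06 (adjusted p = 4.2e-07) and -1.18 ± 0.06 (adjusted p = 1.1e-10), with 0.59 between the knockouts. *Ndufs5*, an accessory subunit on the intermembrane side, was at 20.7, 22.1 and 20.2 CPM in WT, 13.1, 13.4 and 11.6 in the samples labelled *Atm-/-* and 10.1, 12.5 and 13.5 in *Sirt6-/-*. Both knockout groups lay below WT and overlapped each other, with log2 fold changes of -0.73 ± 0.10 (adjusted p = 1e-05) and -0.80 ± 0.11 (adjusted p = 1.3e-05). *Ndufs5* shares 41.2% of its 50-base stretches with 1 other gene's transcript, so its count is uncertain.

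*Ndufb11* rose in both knockouts. This small membrane-arm subunit, encoded on the X chromosome, was at 37.8, 45.0 and 36.9 CPM in WT, 56.9, 61.7 and 56.2 in the samples labelled *Atm-/-* and 62.4, 64.7 and 65.6 in *Sirt6-/-*, with log2 fold changes of 0.54 ± 0.08 (adjusted p = 2.4e-05) and 0.69 ± 0.08 (adjusted p = 9.1e-07). WT lay below both. The gap between the knockouts was -0.13 and lost its call in several alternatives. *Ndufa13*, an accessory subunit at the foot of the peripheral arm, followed the same order, at 41.2, 40.8 and 35.7 CPM in WT, 51.1, 52.6 and 53.8 in the samples labelled *Atm-/-* and 56.2, 65.0 and 59.4 in *Sirt6-/-*, with log2 fold changes of 0.41 and 0.62. *Ndufa2*, which sits on the peripheral arm, was at 31.2, 31.5 and 33.7 CPM in WT, 48.8, 49.2 and 50.9 in the samples labelled *Atm-/-* and 34.3, 35.8 and 30.4 in *Sirt6-/-*. The samples labelled *Atm-/-* lay above the rest, and the log2 fold changes against WT were 0.62 ± 0.07 (adjusted p = 9.5e-07) there and 0.06 ± 0.08 (adjusted p = 0.5) in *Sirt6-/-*. The direct difference between the knockouts was 0.57 ± 0.07 (adjusted p = 1.6e-07).

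Falls of complex I subunits in the samples labelled *Atm-/-* were led by *Ndufv3*, an accessory protein of the NADH-oxidising tip. It was at 51.1, 45.7 and 42.9 CPM in WT, 27.4, 26.9 and 27.5 in those samples and 36.8, 37.0 and 35.8 in *Sirt6-/-*, so that the samples labelled *Atm-/-* were lowest with no overlap. The log2 fold changes were -0.78 ± 0.08 (adjusted p = 4.2e-07) and -0.35 ± 0.07 (adjusted p = 0.00055), and -0.42 ± 0.07 (adjusted p = 9.2e-06) between the knockouts. *Ndufb4* had a like order, 43.1, 46.0 and 40.1 CPM in WT, 26.8, 28.6 and 27.5 in the samples labelled *Atm-/-* and 37.4, 38.9 and 38.2 in *Sirt6-/-*, with -0.65 in the samples labelled *Atm-/-* and -0.17 in *Sirt6-/-*. Its call in *Sirt6-/-* (adjusted p = 0.034) was lost without WT replicate 2, without any 1 of the *Sirt6-/-* samples, and with library totals. Of its 50-base stretches 37.0% recur in other genes, a share taken over a transcript of 971 bases, while its deposited length is 454 bases.

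Complex III hands electrons from ubiquinol to cytochrome c through cytochrome b, cytochrome c1 and the Rieske iron-sulphur protein. In *Sirt6-/-* 5 of its 9 members were lower and 1 higher, and in the samples labelled *Atm-/-* 1 was lower and 3 were higher. Between the knockouts 7 were higher in the samples labelled *Atm-/-* and 0 lower at the adjusted threshold or at an unadjusted p under 0.05, in edgeR's test.

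The end of this step showed the clearest divergence. *Cyc1*, cytochrome c1, was at 185, 192 and 197 CPM in WT and 203, 212 and 217 in the samples labelled *Atm-/-*, but at 109, 108 and 104 in *Sirt6-/-*. *Cycs*, the soluble carrier that takes the electron from it and that also triggers the apoptosome once released, was at 208, 212 and 205 CPM in WT, 213, 216 and 216 in the samples labelled *Atm-/-* and 109, 118 and 116 in *Sirt6-/-*. For both genes *Sirt6-/-* lay far below the other groups, with log2 fold changes against WT of -0.83 ± 0.05 (adjusted p = 5.6e-10) for *Cyc1* and -0.86 ± 0.05 (adjusted p = 4e-10) for *Cycs*. In the samples labelled *Atm-/-* *Cyc1* differed from WT by 0.13 ± 0.05 (adjusted p = 0.02), a call lost without WT replicate 1 or without *Atm-/-* replicate 3, and *Cycs* by 0.04 ± 0.04 (adjusted p = 0.45), a value that became 0.20 with library totals and then passed the test (adjusted p = 0.00058). Directly, the samples labelled *Atm-/-* exceeded *Sirt6-/-* by 0.98 ± 0.04 (adjusted p = 1.7e-14) for *Cyc1* and 0.92 ± 0.04 (adjusted p = 4.6e-14) for *Cycs*. *Cycs* has many processed copies in the genome, and 28.2% of its 50-base stretches occur in the transcripts of 43 other genes, whereas *Cyc1* shares none.

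Since *Cycs* is the textbook target of the respiratory regulators NRF1 and CREB, its promoter is shown. The 250 bases before its start site lie at chr6:50566570-50566819 on the minus strand (RefSeq, GRCm38.p6), and capitals mark the NRF1 core GCATGCGC and the cAMP response element TGACGTCA, matched on either strand.
Cycs: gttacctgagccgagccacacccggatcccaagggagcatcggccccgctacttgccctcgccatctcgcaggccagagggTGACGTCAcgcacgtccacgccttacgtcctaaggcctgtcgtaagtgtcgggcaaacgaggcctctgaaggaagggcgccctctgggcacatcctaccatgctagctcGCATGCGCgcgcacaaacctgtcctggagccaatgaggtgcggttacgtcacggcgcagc
Both motifs were searched in windows from 250 bases before to 50 bases after each start site. Of the 90 members 74 had such a window, 80 windows in all, and 16, *Cyc1* among them, did not. The NRF1 core was in 15% of the members' windows and in 2.71% of all 32851 windows, and TGACGTCA in 6.25% and 1.79%. The ETS motif CCGGAAG was in 18.8% and 8.86%, the YY1 motif AAGATGGC in 15% and 2.75%, and the E-box CACGTG in 11.2% and 7.15%. CCAAT (42.5% and 37.4%) and the Sp1 motif GGGCGG (42.5% and 35.7%) were common in both. The members' windows were also richer in G and C, with a median of 57.5% against 52.7%. The windows of *Ndufb10* and *Cox7a2*, also lower in *Sirt6-/-* than in WT, held no NRF1, TGACGTCA, ETS or YY1 match. A letter match is no evidence of binding.

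The Rieske protein differed from *Cyc1* in its order. *Uqcrfs1* was at 59.7, 64.1 and 72.4 CPM in WT and 51.5, 58.2 and 69.9 in *Sirt6-/-*, which overlapped, and at 92.3, 93.3 and 125 in the samples labelled *Atm-/-*, which lay above both with 1 sample well above the other two. The log2 fold changes were 0.66 ± 0.10 (adjusted p = 5.2e-05) for the samples labelled *Atm-/-*, -0.13 ± 0.10 (adjusted p = 0.26) for *Sirt6-/-* and 0.80 ± 0.10 (adjusted p = 3.6e-07) between them. Without *Sirt6-/-* replicate 3 the *Uqcrfs1* value in *Sirt6-/-* was -0.25 and passed the test (adjusted p = 0.024). *Uqcrb*, which binds near the ubiquinone site, was at 65.7, 64.2 and 56.9 CPM in WT, 74.2, 78.6 and 83.6 in the samples labelled *Atm-/-* and 53.3, 58.4 and 59.7 in *Sirt6-/-*, a rise of 0.33 in the samples labelled *Atm-/-*; in *Sirt6-/-* it was called lower only without WT replicate 3 (-0.19), and 43.2% of its 50-base stretches recur elsewhere. *Uqcrc1*, a core protein that faces the matrix, fell in both knockouts: from 256, 261 and 256 CPM in WT to 178, 190.1 and 193 and 182, 169 and 196, or -0.47 ± 0.05 (adjusted p = 3.8e-07) and -0.50 ± 0.05 (adjusted p = 7.3e-07) on the log2 scale. The knockouts overlapped there.

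**Figure D4:**
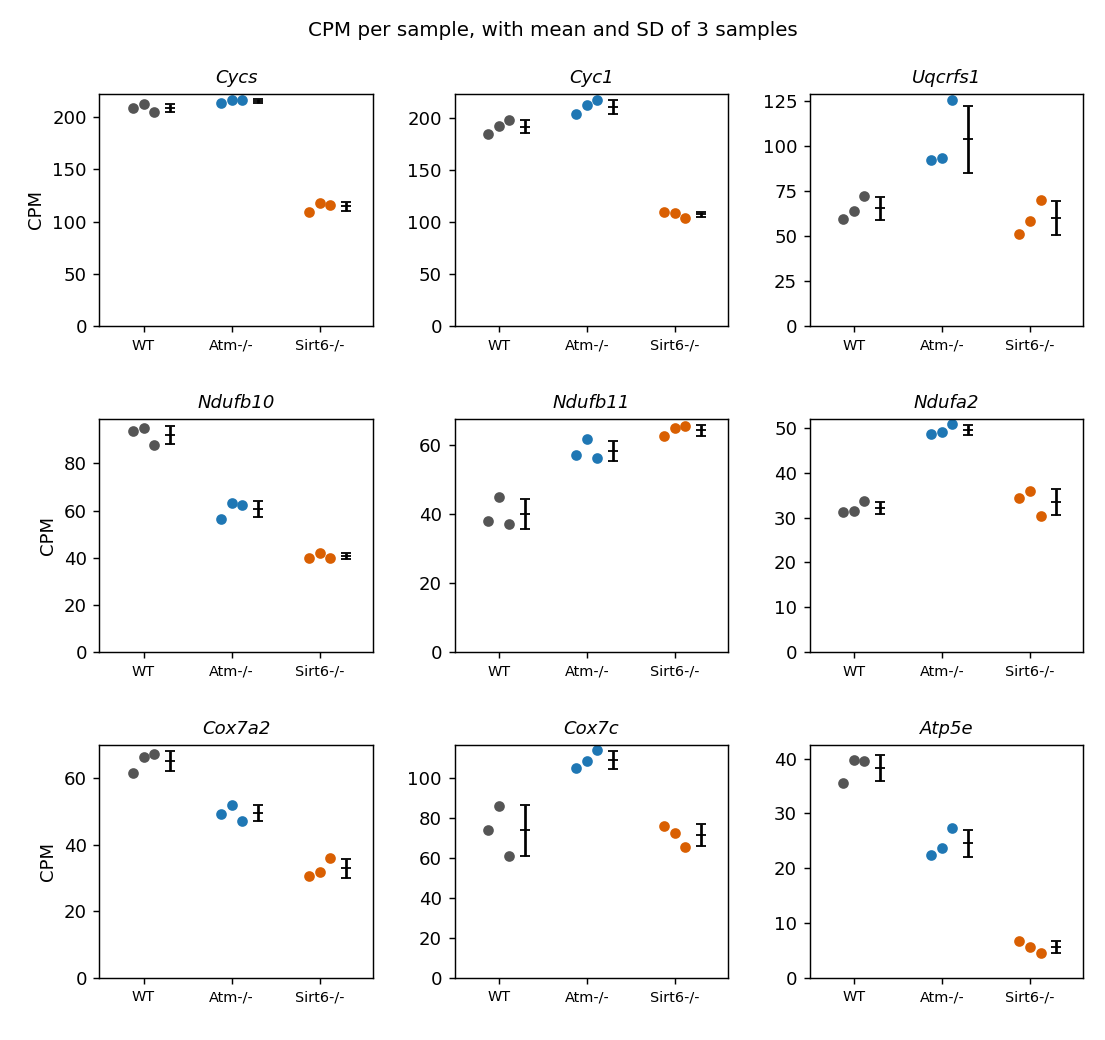
CPM of 9 members in each sample (points), with the mean and SD of 3 samples beside each group; each axis starts at 0. *Cycs* and *Cyc1* are low in *Sirt6-/-* alone of the 3 groups, *Uqcrfs1*, *Ndufa2* and *Cox7c* are high in the samples labelled *Atm-/-*, *Ndufb11* is high in both, and *Ndufb10*, *Cox7a2* and *Atp5e* step down from WT to *Atm-/-* to *Sirt6-/-*.

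Complex IV, cytochrome c oxidase, had 5 of 11 tested subunits lower and 1 higher in *Sirt6-/-*, and 5 lower and 2 higher in the samples labelled *Atm-/-*. The lower ones are 45.5% of the subunits in each comparison, beside 37.4% and 33.6% of all tested genes, so that with 11 subunits the count lay near the background. Its median log2 fold changes were -0.10 and -0.05. *Cox7a2* is the ubiquitous form of subunit 7a, whose muscle form *Cox7a1* had at most 6 reads here. It was at 61.7, 66.5 and 67.2 CPM in WT, 49.4, 52.0 and 47.1 in the samples labelled *Atm-/-* and 30.7, 31.8 and 36.1 in *Sirt6-/-*, stepping down without overlap, with -0.40 ± 0.06 (adjusted p = 4.3e-05) and -0.99 ± 0.07 (adjusted p = 1.1e-08) against WT and 0.60 between the knockouts. *Cox5a*, a matrix-facing subunit, was at 166, 166 and 174 CPM in WT, 122, 122 and 126 in the samples labelled *Atm-/-* and 102, 111 and 108 in *Sirt6-/-*, with -0.46 and -0.66. *Cox6a1*, the form of subunit 6a outside muscle, fell by a like amount in both (-0.41 and -0.39), and its difference between the knockouts was -0.01 ± 0.05 (adjusted p = 0.87).

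The small membrane subunits *Cox7c* and *Cox6c* rose. *Cox7c* was at 74.2, 86.1 and 61.0 CPM in WT, 105, 108 and 114 in the samples labelled *Atm-/-* and 76.2, 72.6 and 65.2 in *Sirt6-/-*. The samples labelled *Atm-/-* were above all others, with 0.56 ± 0.09 (adjusted p = 7.9e-05) against WT and 0.62 ± 0.06 (adjusted p = 2.8e-09) against *Sirt6-/-*, but 53.0% of its 50-base stretches recur in 3 other genes. *Cox6c* was at 75.4, 95.9 and 85.1 CPM in WT, 114, 120.0 and 111 in the samples labelled *Atm-/-* and 112, 119 and 115 in *Sirt6-/-*, above WT in both knockouts by 0.42 and 0.44. Of its 50-base stretches 21.1% recur in 1 other gene.

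The remaining ubiquitous forms were mixed. *Cox4i1*, the general form of the regulatory subunit 4, was at 301, 297 and 292 CPM in WT, 276, 295 and 295 in the samples labelled *Atm-/-* and 300.4, 313 and 348 in *Sirt6-/-*. Its log2 fold changes against WT were -0.05 ± 0.04 (adjusted p = 0.36) and 0.11 ± 0.05 (adjusted p = 0.073). With library totals both were called above WT, at 0.12 and 0.20. The *Sirt6-/-* value was also called with 10 counts in every sample or without *Sirt6-/-* replicate 1. Between the knockouts *Cox4i1* was lower in the samples labelled *Atm-/-* (-0.14 ± 0.05, adjusted p = 0.011). That call was lost with library totals, without *Atm-/-* replicate 1 or without *Sirt6-/-* replicate 3. The lung and hypoxia form *Cox4i2* had 18 reads over all 9 samples. *Cox6b1* did not pass the test in any comparison, at 73.2, 80.8 and 70.7 CPM in WT, 76.3, 78.2 and 80.5 in the samples labelled *Atm-/-* and 70.3, 77.7 and 79.7 in *Sirt6-/-*, although with library totals it was above WT in the samples labelled *Atm-/-* (0.22, adjusted p = 0.0041). *Cox7b* fell in *Sirt6-/-* (-0.36) and was at -0.03 in the samples labelled *Atm-/-*. *Cox8a* was at 315, 280.4 and 286 CPM in WT, 218, 255 and 222 in the samples labelled *Atm-/-* and 275, 287 and 322 in *Sirt6-/-*, lower in the samples labelled *Atm-/-* than in the other groups (-0.35 ± 0.06, adjusted p = 0.00016 against WT and -0.34 against *Sirt6-/-*). *Ndufa4*, first counted with complex I and now placed in complex IV, was at 165, 161 and 149 CPM in WT, 164, 178 and 168 in the samples labelled *Atm-/-* and 143, 141 and 159 in *Sirt6-/-*, with a call between the knockouts (0.21 ± 0.05, adjusted p = 0.00071) and none against WT. With library totals *Ndufa4* was called above WT in the samples labelled *Atm-/-* (0.26), and without WT replicate 3 or without *Sirt6-/-* replicate 3 it was called lower in *Sirt6-/-* (-0.15 and -0.16). *Cox5b*, not singled out by the naming rule, also fell in both (-0.38 and -0.64).

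ATP synthase had 11 of 15 subunits lower, 2 higher and 2 not called in *Sirt6-/-*, with a median of -0.28. In the samples labelled *Atm-/-* 8 were lower, 3 higher and 4 not called, with a median of -0.14. All 5 genes of the F1 head and central stalk (*Atp5a1*, *Atp5b*, *Atp5c1*, *Atp5d* and *Atp5e*, the alpha to epsilon subunits) were lower in *Sirt6-/-* than in WT and than in the samples labelled *Atm-/-*. The catalytic subunit *Atp5b* was at 1663, 1584 and 1574 CPM in WT, 1712, 1766 and 1736 in the samples labelled *Atm-/-* and 1111, 1096 and 1119.5 in *Sirt6-/-*. The 3 *Sirt6-/-* samples lay well below the rest, with -0.53 ± 0.04 (adjusted p = 2e-08) against WT. The small excess in the samples labelled *Atm-/-* (0.11 ± 0.04, adjusted p = 0.025) lost its call without WT replicate 3, without *Atm-/-* replicate 2 or without *Atm-/-* replicate 3. Between the knockouts the difference was 0.66 ± 0.03 (adjusted p = 7.2e-14).

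*Atp5e* had the largest change of any member. It encodes the epsilon subunit, the smallest piece of the central stalk. Its level was 35.6, 39.8 and 39.6 CPM in WT, 22.5, 23.8 and 27.3 in the samples labelled *Atm-/-* and 6.72, 5.65 and 4.44 in *Sirt6-/-*. The groups did not overlap. The log2 fold change was -2.77 ± 0.12 (adjusted p = 3.2e-11) in *Sirt6-/-*, which left 14.6% of the WT level, and -0.65 ± 0.09 (adjusted p = 9.2e-06) in the samples labelled *Atm-/-*. Between the knockouts the difference was 2.13 ± 0.13 (adjusted p = 3.1e-12). On the per-length scale *Atp5e* was at 87.2 ± 5.44 RPKM in WT (mean ± SD, n = 3) and 13.6 ± 2.84 in *Sirt6-/-*, where the median subunit of ATP synthase was at 169.7. Its transcript shares no 50-base stretch with another gene and overlaps no other coding gene. The 250 bases before its start site, at chr2:174464102-174464351 on the minus strand (RefSeq, GRCm38.p6), hold an ETS match in capitals, read as CTTCCGG on this strand.
Atp5e: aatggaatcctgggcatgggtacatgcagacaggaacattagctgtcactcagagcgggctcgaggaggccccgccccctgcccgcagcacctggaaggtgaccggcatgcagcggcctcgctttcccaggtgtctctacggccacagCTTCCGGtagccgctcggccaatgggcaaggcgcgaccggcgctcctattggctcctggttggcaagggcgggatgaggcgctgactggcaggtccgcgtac
The neighbouring subunits of the head show how far it stood from them: *Atp5a1* fell by 0.43, *Atp5c1* by 0.57 and *Atp5d* by 0.28 on the log2 scale in *Sirt6-/-*.

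The c ring is built from a single mature protein encoded by 3 genes, *Atp5g1*, *Atp5g2* and *Atp5g3*, which differ in the import presequence, and these moved apart. *Atp5g1* was at 162, 153 and 165 CPM in WT, 144, 146 and 148 in the samples labelled *Atm-/-* and 109, 118 and 121 in *Sirt6-/-*. *Atp5g3* was at 287, 327 and 311 CPM in WT, 249, 241 and 233 in the samples labelled *Atm-/-* and 177, 178 and 161 in *Sirt6-/-*. Both stepped down in that order with no overlap. *Atp5g2* was at 194, 189.7 and 164 CPM in WT, 215, 239 and 238 in the samples labelled *Atm-/-* and 218, 226 and 231 in *Sirt6-/-* and was above WT in both knockouts. The log2 fold changes in *Sirt6-/-* were -0.46 ± 0.05 (adjusted p = 1.6e-06) for *Atp5g1*, 0.30 ± 0.06 (adjusted p = 0.00034) for *Atp5g2* and -0.84 ± 0.06 (adjusted p = 4.6e-09) for *Atp5g3*. In the samples labelled *Atm-/-* they were -0.14 ± 0.05 (adjusted p = 0.016), 0.33 ± 0.06 (adjusted p = 0.00037) and -0.36 ± 0.05 (adjusted p = 2.1e-05). The *Atp5g1* value there turned to 0.025 with library totals and lost its call without WT replicate 3, *Atm-/-* replicate 1 or *Atm-/-* replicate 2.

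As a share of the reads of the 3 genes, *Atp5g3* went from 47.4 ± 2.41% in WT (mean ± SD, n = 3) to 39.0 ± 1.72% in the samples labelled *Atm-/-* and 33.5 ± 1.94% in *Sirt6-/-*, while *Atp5g2* went from 28.1 ± 2.34% to 37.3 ± 1.75% and 43.9 ± 1.02%. *Atp5g1* kept between 22.6% and 24.6% in the group means. Their sum was 651 ± 16.3 CPM in WT, 617 ± 9.28 in the samples labelled *Atm-/-* and 513 ± 9.25 in *Sirt6-/-*. *Atp5g2* shares 87.4% of its 50-base stretches with 2 other genes, so its reads are uncertain, whereas *Atp5g3* shares none. *Atp5g1* shares 10.6% with 163 other genes, but this was taken over a transcript of 4715 bases. Its deposited length is 805 bases, so its share cannot be ranked beside the others.

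**Figure D5:**
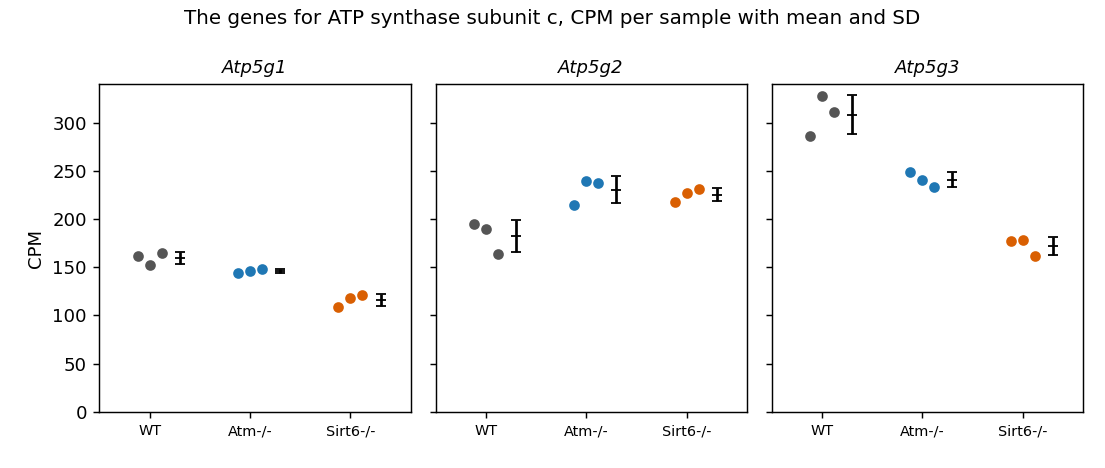
CPM of *Atp5g1*, *Atp5g2* and *Atp5g3*, the genes for ATP synthase subunit c, in each sample (points), with the mean and SD of 3 samples; the axis starts at 0. *Atp5g1* and *Atp5g3* are lowest in *Sirt6-/-* and *Atp5g2* is lowest in WT.

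These genes encode the same mature subunit yet their counts moved in opposite directions, with the count of *Atp5g2* uncertain as stated above. The 250 bases before each start site are therefore set together, all on the minus strand of GRCm38.p6 (RefSeq). They lie at chr11:96075632-96075881, chr15:102671048-102671297 and chr2:73911327-73911576, and capitals mark matches to the NRF1 core, the ETS motif, the YY1 motif or TGACGTCA.
Atp5g1: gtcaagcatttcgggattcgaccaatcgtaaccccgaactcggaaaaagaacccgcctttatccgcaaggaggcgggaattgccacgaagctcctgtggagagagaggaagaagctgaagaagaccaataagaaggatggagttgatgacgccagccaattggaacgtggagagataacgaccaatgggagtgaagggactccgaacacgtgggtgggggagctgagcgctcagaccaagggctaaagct
Atp5g2: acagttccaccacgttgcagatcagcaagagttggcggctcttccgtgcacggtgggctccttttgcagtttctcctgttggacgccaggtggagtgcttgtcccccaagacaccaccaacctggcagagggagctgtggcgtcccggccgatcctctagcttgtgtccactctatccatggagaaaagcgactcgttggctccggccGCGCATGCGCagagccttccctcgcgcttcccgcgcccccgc
Atp5g3: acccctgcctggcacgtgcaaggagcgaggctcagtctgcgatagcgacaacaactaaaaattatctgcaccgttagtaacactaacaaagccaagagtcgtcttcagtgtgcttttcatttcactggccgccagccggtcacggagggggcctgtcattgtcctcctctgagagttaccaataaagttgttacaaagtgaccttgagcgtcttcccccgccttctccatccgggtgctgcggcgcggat
Of the 3, only *Atp5g2* held an NRF1 core, present on both strands in an overlapping pair. *Atp5g1* and *Atp5g3* held the E-box CACGTG and CCAAT, in lower case here, which the *Atp5g2* window did not.

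The rest of ATP synthase is the peripheral stalk and the membrane part. *Atp5f1*, subunit b of the stalk, was at 345, 363 and 361 CPM in WT, 256, 249 and 248 in the samples labelled *Atm-/-* and 253, 274 and 260.1 in *Sirt6-/-*. It fell in both, with -0.51 and -0.44 on the log2 scale, and the knockouts overlapped. *Atp5h*, subunit d, was at 113, 108 and 117 CPM in WT, 133, 154 and 130.2 in the samples labelled *Atm-/-* and 117, 122 and 134 in *Sirt6-/-*. It rose by 0.30 ± 0.06 (adjusted p = 0.00077) in the samples labelled *Atm-/-*, and its rise in *Sirt6-/-* (0.14 ± 0.06, adjusted p = 0.032) was lost in DESeq2's test, with all 9 samples in 1 fit and in 4 of the 6 fits that left out a sample. Of its 50-base stretches 50.5% recur in 4 other genes. *Atp5j*, known as coupling factor 6, and the membrane subunit *Atp5l* fell further in the samples labelled *Atm-/-* (-0.47 and -0.43) than in *Sirt6-/-* (-0.23 and -0.18), with -0.23 ± 0.06 (adjusted p = 0.0013) and -0.23 ± 0.05 (adjusted p = 0.00038) between the knockouts. Both calls in *Sirt6-/-* were lost with library totals (-0.14 and -0.09). Of the 50-base stretches of *Atp5l* 68.5% recur in 13 other genes, so its count is uncertain, and of those of *Atp5f1* 23.2% recur in 2. *Atp5j2* and *Atp5k* passed the test in neither comparison with WT.

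Of the 11 assembly factors and other matched proteins, 10 were tested. In *Sirt6-/-* 5 were lower and 1 higher, in the samples labelled *Atm-/-* 4 were lower and 2 higher. *Ndufaf4*, which builds the ubiquinone-reducing part of complex I, moved in opposite directions. It was at 28.7, 38.1 and 32.8 CPM in WT, 45.6, 44.7 and 47.7 in the samples labelled *Atm-/-* and 24.5, 23.5 and 23.4 in *Sirt6-/-*, with no overlap, a rise of 0.46 ± 0.09 (adjusted p = 0.00033) and a fall of -0.48 ± 0.10 (adjusted p = 0.00035). The direct difference was 0.96 ± 0.07 (adjusted p = 3.7e-11). *Ndufaf2*, a late-stage complex I factor, had the same order at 16.3, 16.2 and 15.3 CPM in WT, 19.3, 21.8 and 19.6 in the samples labelled *Atm-/-* and 11.2, 13.1 and 11.8 in *Sirt6-/-*, with 0.34, -0.41 and a direct difference of 0.76 ± 0.10 (adjusted p = 5.2e-07).

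*Ndufaf7*, a methyltransferase that acts in complex I assembly, fell in both, from 31.7, 35.2 and 36.5 CPM in WT to 22.9, 20.6 and 20.9 and 21.8, 19.4 and 20.1, or -0.69 and -0.75 on the log2 scale. *Ndufaf1* passed the test between the knockouts (-0.48 ± 0.10, adjusted p = 0.00012) and lay just outside it against WT, at -0.26 ± 0.11 (adjusted p = 0.052) in the samples labelled *Atm-/-* and 0.24 ± 0.11 (adjusted p = 0.054) in *Sirt6-/-*. It gained a call in *Sirt6-/-* with a replicate block (0.24, adjusted p = 0.033), library totals, 10 counts in every sample, all 9 samples in 1 fit or without WT replicate 3, and in the samples labelled *Atm-/-* with all 9 samples in 1 fit or without WT replicate 1. The supercomplex factor *Cox7a2l* was at 109.9, 114 and 111 CPM in WT, 76.4, 78.4 and 81.1 in the samples labelled *Atm-/-* and 94.7, 93.2 and 96.1 in *Sirt6-/-*, stepping down from WT to *Sirt6-/-* to the samples labelled *Atm-/-*, with -0.51 ± 0.05 (adjusted p = 3.8e-07) and -0.24 ± 0.05 (adjusted p = 0.00038). *Atp5sl* was higher in *Sirt6-/-* by 0.48 ± 0.13 (adjusted p = 0.0036) than in WT, and lower in the samples labelled *Atm-/-* than in *Sirt6-/-* (-0.50). *Atp5s* and *Ndufaf3*, too low for the naming rule and named here after their values were seen, had the lowest values of the class: *Atp5s* was at -1.00 in the samples labelled *Atm-/-* and *Ndufaf3* at -1.29 in *Sirt6-/-*.

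The members had a median length of 680.5 bases. Across the 82 tested members, which share the same libraries and are not independent, the rank correlation of the log2 fold change with length was -0.246 in *Sirt6-/-* and -0.144 in the samples labelled *Atm-/-*, so that the lower values lay, weakly, with the longer genes. With expression level in place of length it was -0.251 and -0.0814 in the same order, so the pattern in *Sirt6-/-* was not particular to length. Shared sequence touched part of the set: 38 members share at least one 50-base stretch with another gene, 6 of them over 50% of their length (*Atp5o*, *Atp5g2*, *Atp5l*, *Ndufa12*, *Cox7c* and *Atp5h*). For *Atp5o* the matches include a second annotation of *Atp5o* itself, so its share does not measure sequence held by other genes alone. A further limit is that 27 members overlap another coding gene, and whether strand was used in counting is not stated. *Atp5o* is among them, and its overlaps also include its second annotation.

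Complex II, which feeds electrons from succinate and shares its enzyme with the citric acid cycle, was counted beside them. Of its 6 tested genes 3 were lower and 1 higher in *Sirt6-/-*, and 2 lower and 1 higher in the samples labelled *Atm-/-*. *Sdhd*, a membrane anchor, fell in both (-0.78 ± 0.04, adjusted p = 9.1e-10 in the samples labelled *Atm-/-* and -0.54 ± 0.05, adjusted p = 4.9e-08 in *Sirt6-/-*). *Sdhc*, the other anchor, fell in both (-0.31 and -0.30), and the flavoprotein *Sdha* in *Sirt6-/-* (-0.18). *Sdhb*, the iron-sulphur subunit, rose by 0.29 in the samples labelled *Atm-/-*, and the assembly factor *Sdhaf2* by 0.26 in *Sirt6-/-*.

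Assembly factors outside the name rule were mixed. For complex III, 4 of 6 were lower and 2 higher in *Sirt6-/-* (*Uqcc1* at -0.62, *Bcs1l* at -0.56, *Uqcc2* at -0.45, *Ttc19* at -0.30, *Lyrm7* at 1.22 and *Uqcc3* at 0.96), and 3 lower with none called higher in the samples labelled *Atm-/-* (*Bcs1l* at -0.31, *Uqcc2* at -0.26 and *Uqcc1* at -0.17). *Bcs1l* is the chaperone that inserts the Rieske protein. For complex IV, 13 of 26 were lower and 7 higher in *Sirt6-/-*, and 8 and 8 in the samples labelled *Atm-/-*. *Smim20* had the largest fall in both (-1.68 in *Sirt6-/-* and -1.17 in the samples labelled *Atm-/-*), followed by *Coa5* (-0.99 and -0.85 in that order). *Coa4* had the largest rise (1.40 and 1.33 in that order), next to *Pet100* at 0.96 in *Sirt6-/-* and *Lrpprc* in the samples labelled *Atm-/-*.

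*Lrpprc*, which stabilises the RNAs made from mitochondrial DNA, parted the knockouts: it was at 154, 159 and 164 CPM in WT, 242, 230.2 and 232 in the samples labelled *Atm-/-* and 101, 98.8 and 96.6 in *Sirt6-/-*, or 0.55 ± 0.05 (adjusted p = 6.1e-08) and -0.69 ± 0.05 (adjusted p = 4.9e-09). For complex I, 4 of 9 further factors were lower and 5 higher in *Sirt6-/-*, and 6 lower and 1 higher in the samples labelled *Atm-/-*. In *Sirt6-/-* *Ecsit* (-1.05), *Tmem186* (-0.51), *Foxred1* (-0.44) and *Timmdc1* (-0.30) fell, and *Lyrm2* (1.22), *Nubpl* (0.89), *Aifm1* (0.88), *Tmem126b* (0.60) and *Acad9* (0.17) rose. *Timmdc1* and *Tmem186* led the falls in the samples labelled *Atm-/-* (-0.69 and -0.63), where *Aifm1*, needed for the import of respiratory subunits, was the 1 gene that rose (1.15). For ATP synthase, 1 of 7 factors was lower and 2 higher in *Sirt6-/-*, and 2 and 2 in the samples labelled *Atm-/-*. *Tmem70*, which helps assemble the c ring, fell in both (-0.60 in the samples labelled *Atm-/-* and -0.62 in *Sirt6-/-*). *Atpif1*, the natural inhibitor of ATP hydrolysis by the enzyme, rose in both (0.24 in the samples labelled *Atm-/-* and 0.94 in *Sirt6-/-*). *Atpaf1* and *Atpaf2*, chaperones of the F1 head, were at -0.31 and 0.36 in the samples labelled *Atm-/-*, both past the test, and *Atpaf1* at 0.24 in *Sirt6-/-*.

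Regulators of mitochondrial transcription and biogenesis were counted from the same fits. Of 21 tested in *Sirt6-/-*, 12 were lower and 4 higher, with a median of -0.23, and of 22 tested in the samples labelled *Atm-/-*, 5 were lower and 11 higher, with a median of 0.11. Of all tested genes 37.4% were lower and 39.2% higher in *Sirt6-/-*, and 33.6% and 34.7% in the samples labelled *Atm-/-*. Between the knockouts 14 were higher in the samples labelled *Atm-/-* and 1 (*Mterf4*) lower. *Ppargc1b*, a coactivator of respiratory genes, was at 15.9, 18.2 and 15.9 CPM in WT, 5.80, 5.48 and 4.37 in the samples labelled *Atm-/-* and 1.2, 0.185 and 0.690 in *Sirt6-/-*, with -1.68 ± 0.13 (adjusted p = 3.8e-08) and -4.58 ± 0.29 (adjusted p = 2e-09). Its partner *Esrra*, a nuclear receptor bound by such coactivators, fell in the same order (-0.47 and -0.99). The related coactivator *Ppargc1a* was at 0.188, 0.607 and 0.698 CPM in WT, 7.59, 7.05 and 7.15 in the samples labelled *Atm-/-* and 0.276, 0.154 and 0.300 in *Sirt6-/-*. It was high in the samples labelled *Atm-/-* alone, with 3.85 ± 0.29 (adjusted p = 2.1e-08), and was not tested between *Sirt6-/-* and WT.

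The calls of 5 or fewer in this list are given in full. In the samples labelled *Atm-/-* the lower regulators were *Ppargc1b*, *Tfb1m* (-0.59), *Esrra*, *Gabpa* (-0.26) and the protease *Lonp1* (-0.26), and *Ppargc1a* and *Polg2* (0.79) led the rises. In *Sirt6-/-* the higher ones were *Mterf4* (2.62), *Polg2* (0.49), the helicase *Peo1* (0.44) and *Gabpb2* (0.14). *Nrf1* was at 46.6, 48.8 and 46.6 CPM in WT, 57.4, 60.5 and 64.0 in the samples labelled *Atm-/-* and 39.3, 36.7 and 39.9 in *Sirt6-/-*, with 0.35 ± 0.06 (adjusted p = 0.00016) and -0.29 ± 0.06 (adjusted p = 0.00083). Any link between its level and that of the members was not tested. *Nrf1* lies outside the naming rule for the lists and was named after its values were seen.

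Between the knockouts, complex II had 2 genes higher in the samples labelled *Atm-/-* (*Sdhb* at 0.31 and *Sdha* at 0.12) and 2 lower (*Sdhd* at -0.22 and *Sdhaf2* at -0.16). Of the further complex I factors 2 were higher there (*Ecsit* at 0.55 and *Aifm1* at 0.29) and 4 lower (*Lyrm2* at -1.67, *Tmem126b* at -0.93, *Nubpl* at -0.64 and *Timmdc1* at -0.37). Of the complex III factors 4 were higher (*Uqcc1* at 0.46, *Ttc19* at 0.39, *Bcs1l* at 0.26 and *Uqcc2* at 0.21) and 2 lower (*Uqcc3* at -0.91 and *Lyrm7* at -0.80). The complex IV factors had 11 higher, led by *Lrpprc* at 1.26 and *Coa7* at 0.96, and 7 lower, led by *Pet100* at -0.76 and *Cox20* at -0.73. Among the ATP synthase factors *Atpaf2* (0.43) and the gene listed as *1110001J03Rik* (0.64) were higher, and *Atpif1* (-0.68), *Atpaf1* (-0.53) and *Usmg5* (-0.14) lower.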

How the data were processed

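Per the labels, RNA of 9 mouse embryonic fibroblast samples was enriched for mRNA with oligo(dT) beads, fragmented and sequenced, and the submitters' processing notes name the mm10 build. For each sample the authors deposited a raw read count per gene and an RPKM value, which the authors scaled by gene length and library size. The aligner, the counter and whether strand was used are not given in the sources used here. Depth was 32187040 to 33837949 counted reads per sample.

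Counts as deposited were fitted per pair of groups with edgeR 4.0.16 in R 4.3.3 (filterByExpr, TMM, estimateDisp, glmQLFit, glmQLFTest), and p-values were adjusted over all genes tested by the Benjamini-Hochberg method, with a threshold of 0.05. Tested on simulated counts modelled on the samples labelled *Atm-/-* against WT, the fit recovered 20 of 67 genes changed 1.2-fold, 65 of 67 changed 1.5-fold and 66 of 66 changed 2-fold, with 6 false calls; for *Sirt6-/-* against WT it recovered 14, 64 and 66 with 11 false calls, and between the knockouts 19, 62 and 66 with 11. In each simulation only these genes were changed, far fewer than were called in the real fits, and every gene had a dispersion of 0.006. The SE is the size of the log2 fold change divided by the square root of its F statistic. CPM used TMM factors over all 9 samples. RPKM served to compare levels between genes. The members and the gene lists were chosen with earlier results of these data known, so they were given counts and medians and no test of their own. Named members are, for each comparison and complex, the 2 largest rises and 2 largest falls past the threshold whose samples did not overlap and whose average log2 CPM reached 3, plus *Cycs*, *Cyc1* and the isoform genes. From the pathway lists, genes were named where 5 or fewer were called in a direction, and otherwise the 2 largest changes. The grouping of subunits by role within a complex was made after the values were seen. The values of 1 complex I gene, counted in all totals, are not reported here. All 90 members matched GENCODE M21 and RefSeq symbols. Shared sequence was counted as 50-base stretches found in another gene's GENCODE M21 transcripts. Alternatives were DESeq2 1.42.0 size factors and its Wald test, library totals, no filter, 10 counts in every sample, all 9 samples in 1 fit, a replicate block, each sample left out and a 2-fold threshold.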

Additional observations from a re-analysis of the deposited data

How the results depend on the processing

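With library totals in place of TMM, members higher in *Atm-/-* (here, the samples so labelled) against WT went from 23 to 39, and the median log2 fold change of the members turned from -0.02 to 0.14. The same scaling moved the median of *Sirt6-/-* against WT to -0.15, that of *Atm-/-* against *Sirt6-/-* to 0.26, and the members lower in the last comparison from 17 to 10. It turned *Atp5g1* and *Cox4i1* in *Atm-/-* against WT to 0.025 and 0.12, and gave ratios of the summed level of 1.07 (*Atm-/-* over WT, turned from 0.963), 0.853 (*Sirt6-/-* over WT) and 1.26 (*Atm-/-* over *Sirt6-/-*). Under each scaling the members lay 0.04 below all genes in *Atm-/-* and 0.26 below in *Sirt6-/-*. With at least 10 counts in every sample, the *Atm-/-* median was 0.0011. A 2-fold threshold left 0 members higher and 0 lower in *Atm-/-*, 0 and 3 in *Sirt6-/-*, and 1 and 1 between the knockouts. Leaving out 1 sample at a time, the *Atm-/-* median ran from -0.052 to 0.0052, above 0 without *Atm-/-* replicate 1. Without *Atp5b* and *Atp5a1* the summed ratios were 0.937, 0.832 and 1.13, an alternative added after seeing the data, as were the summed ratios with library totals and without WT replicate 2 (0.968 and 0.805). Without WT replicate 2, which stood apart from the other WT samples, 26 members were higher and 28 lower in *Atm-/-* and 15 and 46 in *Sirt6-/-*. Replicate numbers are not stated to mark a shared litter or day, and same-numbered samples correlated between -0.0151 and 0.0588 in their deviations, so they were not taken as paired. With a replicate block 23 members were higher and 28 lower in *Atm-/-*, 15 and 47 in *Sirt6-/-*, and 44 and 17 between the knockouts. Of 111 values of named members, 21 changed their side of the threshold or their sign in some alternative, 2 of them in sign. In the simulations most 1.2-fold changes were missed. Far fewer genes were changed there than were called in the real fits, which makes the adjustment of p-values stricter. The simulations therefore cannot say how often a member changed by that much went uncalled here.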

Other observations

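Carriers that move ADP, ATP, phosphate and protons across the mitochondrial membranes were counted in the same fits, as genes that stand next to ATP synthase in the pathway. Of 12 listed, 7 were tested in every comparison, with 5 higher and 2 lower in the samples labelled *Atm-/-* against WT, and 2 higher and 4 lower in *Sirt6-/-* against WT, beside 68.4% and 76.6% of all tested genes called in either direction. *Ucp2*, an uncoupling protein family member of the inner membrane, was at 1.57, 1.25 and 1.71 CPM in WT, 119.9, 131 and 118 in the samples labelled *Atm-/-* and 74.3, 77.9 and 80.3 in *Sirt6-/-*, far above WT in both knockouts, with log2 fold changes of 6.34 ± 0.10 (SE, adjusted p = 1.6e-15) and 5.68 ± 0.10 (adjusted p = 1.5e-15). The adenine nucleotide carrier *Slc25a5* was at 494, 497 and 483 CPM in WT, 624, 627 and 632 in the samples labelled *Atm-/-* and 347, 339 and 326 in *Sirt6-/-*. It rose in the samples labelled *Atm-/-* and fell in *Sirt6-/-*, with 0.35 and -0.54 on the log2 scale. *Slc25a4*, the form prominent in heart and muscle, rose in both, by 0.19 and 0.14. Of the outer membrane channels, *Vdac2* fell in both (-1.06 and -1.56) and *Vdac1* likewise (-0.22 and -0.73), while *Vdac3* rose by 0.29 in the samples labelled *Atm-/-* and was at 0.07 in *Sirt6-/-*, which did not pass the test. The phosphate carrier *Slc25a3* was at 0.10 and -0.29, both past the test. The comparisons share the WT samples, and the genes are named by the rule for lists of 5 or fewer calls.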
